A study of Mus musculus with 112 samples.

Results

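The 9 genes described here make dopamine, move it across membranes and receive its signal: Drd1, Drd2, Drd3, Drd4, Drd5, Slc6a3, Slc18a2, Th and Ddc. They are 9 of 55413 annotated mouse genes. For each gene every CpG cytosine was taken that lay between 2 kb upstream of the annotated start and the end of the gene, a stretch called the gene window below. The windows held 940 of the 4388579 CpG cytosines with a DNA methylation (DNAme) value in any of the 13 deposited tables. The genes were listed by name.

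DNAme had been profiled by reduced representation bisulfite sequencing (RRBS), which reads CpG-rich fragments left by restriction enzymes, to ask whether paternal cigarette smoke (CS) or loss of the antioxidant regulator NRF2 changes sperm DNAme and whether sons carry such changes. The 112 libraries formed 13 groups, each in a table of its own. In F0 sperm there were 7 groups. C57BL/6J wild type (WT) males were unexposed (control WT, n = 10), CS-exposed (CS WT, n = 9), or CS-exposed and then kept without smoke for 1 of 3 times, which together span 28 to 171 days (recovery 1, 2 and 3, n = 9, 10 and 10). Nrf2-/- males were unexposed (control Nrf2-/-, n = 10) or CS-exposed (CS Nrf2-/-, n = 9). The sons (F1) all had an unexposed CAST/EiJ mother, so every F1 library is of a hybrid and carries a CAST/EiJ allele at each autosomal site. Sperm of these sons was taken where the sire was control WT (n = 6) or CS WT (n = 7). F1 brain was prefrontal cortex from sons of control WT, CS WT, control Nrf2-/- and CS Nrf2-/- sires (n = 8 each), and sons of Nrf2-/- sires inherit a single disrupted allele from the father. Which sons shared a litter or a sire is not given in the sources used here, so p-values in F1 measure the spread between libraries only. A table column carries no sample name, and libraries are therefore named by group and column order.

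Dopamine is made from tyrosine by 2 enzymes in turn, tyrosine hydroxylase (Th) and aromatic amino acid decarboxylase (Ddc). The vesicular transporter VMAT2 (Slc18a2) loads it into vesicles, and the dopamine transporter DAT (Slc6a3) takes it back up after release. Receptors of the D1-like class (Drd1, Drd5) raise cyclic AMP, and those of the D2-like class (Drd2, Drd3, Drd4) lower it. In the prefrontal cortex dopamine arrives on axons from the midbrain, where the neurons that express Th and Slc6a3 have their cell bodies, and it acts there on receptors made by cortical cells. CpG-dense promoters are commonly unmethylated in sperm and brain alike, while DNAme of gene bodies differs between tissues.

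Positions are of the mouse mm10 build (GRCm38). The D1-like receptor genes lie at chr13:54051183-54055705 (Drd1, minus strand) and chr5:38319367-38322518 (Drd5, plus strand). The D2-like genes lie at chr9:49340627-49408177 (Drd2, plus), chr16:43754026-43822932 (Drd3, plus) and chr7:141292006-141296464 (Drd4, plus). The transporter genes lie at chr13:73536747-73578672 (Slc6a3, plus) and chr19:59260896-59296012 (Slc18a2, plus), and the enzyme genes at chr7:142892752-142931128 (Th, minus) and chr11:11814101-11898144 (Ddc, minus). For Th and Drd3 the annotation holds a transcript that starts far upstream of the RefSeq start, at 142899995 and 43762221, so the 2 kb ahead of their windows is not the usual promoter. Distances below are from the nearest RefSeq start. Drd5, Slc18a2 and Ddc overlap antisense genes (Gm26560, Gm29261 and 1700042O10Rik), and Drd3 overlaps the miRNA gene Gm25996, so their cytosines belong to both annotations. A value in at least 4 libraries of every group was present for 273 of the 940 cytosines in F0 sperm, for 120 in the sperm of sons and for 354 in brain. All 9 windows were measurable in each of the 3 sets. Th had the fewest such cytosines (10, 6 and 19), and Drd5 (49, 12 and 46), Drd4 (38, 11 and 60) and Drd2 (48, 13 and 60) the most in F0 sperm and brain. Where neighbouring cytosines stood within 100 bp of each other they were also joined into regions of at least 3 cytosines, so that the windows held 20 regions in F0 sperm, while sperm of sons had 10 and brain 24.

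The stretches that carry the tissue differences described below are printed from the RefSeq genome (GRCm38.p6), 5′ to 3′ along the strand of the gene, with the CpGs that were measured in capitals. The region upstream of Slc6a3 is shown as the region ahead of a start that differed between brain and F1 sperm, and the other 5 were chosen after their values were seen. Each choice thus rests on the values. The Slc6a3 stretch (chr13:73536196-73536390, plus strand) lies ahead of the start and has 10 of its 12 CpGs measured. The Drd5 stretch (chr5:38320673-38320911, plus) is coding sequence in its exon, with 10 of 11 CpGs measured. The Drd2 stretch (chr9:49341120-49341311, plus) lies in the first intron and has 8 CpGs, the G of the last just past its end. The Ddc stretch (chr11:11860894-11861007, minus) is intronic and has 3 CpGs. The Drd1 stretch (chr13:54053168-54053441, minus) and the Th stretch (chr7:142898058-142898155, minus) are coding sequence with 7 and 8 CpGs. The Drd1 and Drd5 stretches, from related receptors, share a run of 14 identical letters.
Slc6a3: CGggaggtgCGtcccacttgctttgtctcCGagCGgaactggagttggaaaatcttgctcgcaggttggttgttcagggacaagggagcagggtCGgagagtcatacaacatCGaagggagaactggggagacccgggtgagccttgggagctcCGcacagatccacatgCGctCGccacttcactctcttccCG
Drd5: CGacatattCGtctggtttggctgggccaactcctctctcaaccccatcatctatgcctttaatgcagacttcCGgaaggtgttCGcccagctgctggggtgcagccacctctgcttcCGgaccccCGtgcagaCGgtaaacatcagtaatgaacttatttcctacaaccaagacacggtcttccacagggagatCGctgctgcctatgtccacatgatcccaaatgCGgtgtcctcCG
Drd2: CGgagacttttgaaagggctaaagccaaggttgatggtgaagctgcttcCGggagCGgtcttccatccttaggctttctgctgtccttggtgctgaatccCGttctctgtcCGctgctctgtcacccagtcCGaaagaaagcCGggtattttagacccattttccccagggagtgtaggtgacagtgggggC
Ddc: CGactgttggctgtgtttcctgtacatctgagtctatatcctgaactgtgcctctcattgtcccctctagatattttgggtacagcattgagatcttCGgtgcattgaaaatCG
Drd1: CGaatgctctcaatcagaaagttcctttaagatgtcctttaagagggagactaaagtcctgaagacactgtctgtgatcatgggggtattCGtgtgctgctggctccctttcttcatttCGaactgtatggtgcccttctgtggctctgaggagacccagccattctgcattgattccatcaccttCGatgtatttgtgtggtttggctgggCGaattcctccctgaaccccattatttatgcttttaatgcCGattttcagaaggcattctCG
Th: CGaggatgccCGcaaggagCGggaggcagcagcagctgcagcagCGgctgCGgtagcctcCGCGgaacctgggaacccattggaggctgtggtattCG

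The tables hold the percent of reads methylated at each cytosine and no read numbers, so the depth behind a value is unknown and no counting interval is given. The number of cytosines with a value stood in for depth. It ran from 800578 to 1855546 per library in F0 sperm (214 to 455 inside the 9 windows), from 510212 to 1429060 in F1 sperm (75 to 340) and from 1332684 to 1711088 in brain (330 to 475), so F1 sperm gave the least precise values. The tissue labels were checked at gene starts. Germline genes had 0.593 to 3.91% DNAme in F0 sperm libraries, 0.387 to 6.83% in F1 sperm and 44.99 to 71.9% in brain. Maternally imprinted genes had 0 to 4.62%, 0 to 8.33% and 4.63 to 32.1%. Only 2 of 8 imprinted and 3 of 6 germline genes were measured in F1 sperm. The CS WT brain library of column 8 stood apart, with the lowest mean DNAme of all brain libraries (30.6%), the lowest germline value (44.99%, the next being 54.2%, over the 4 genes measured in every brain library) and the lowest imprinted value (4.63%, the next being 8.37%). The next lowest means were those of CS Nrf2-/- columns 2, 4 and 5 (31.7, 31.9 and 32.7%), beside 33.8 to 37.6% in the other 28 brain libraries and 35.3 to 36.7% in control Nrf2-/-. Their germline values were 58.6, 56.5 and 59.6% and that of column 6 was 61.3% (over 5 or 6 genes), while control Nrf2-/- had 64.6 to 70.9%. Member counts and named values that rest on these brain libraries are therefore also given without column 8 of CS WT or, for CS Nrf2-/- sires and the interaction, without all 4. A son in the control WT brain group has WT in its title and Nrf2-/- in another label, and which column holds it is not known. No pair of libraries shared more than 4.14% of their intermediate values, so none was counted as a duplicate.

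In unexposed WT animals the largest differences among the 9 genes were between tissues. Exceptions were the Drd3 and Slc18a2 windows, at +1.03 and +7.64 points for brain minus F1 sperm. For F1 minus F0 sperm they differed by more, -8.83 and -9.90 points. Brain was compared with F1 sperm, which shares its parentage, over 108 member cytosines with a value in at least 4 control libraries of F0 sperm, F1 sperm and brain. DNAme was higher in brain at Drd5, Drd2, Slc18a2 and Drd4 and lower at Th, Drd1 and Ddc, so 7 of 9 windows passed (limma with Benjamini-Hochberg adjustment, threshold 0.05) against 64.1% of all 21251 gene windows. Of the 9 regions, 5 passed against 57.6% of all 29392. The members' shares thus lay near those of all genes. Since few member cytosines were measured in F1 sperm, the same comparison was added, after the coverage was seen, with control F0 sperm as the sperm side and 333 member cytosines. It gave 7 of 9 windows (71.1% of all windows passed) and 18 of 23 regions (60.6%), 9 of the 18 higher in brain. In that version the inbred F0 males and the hybrid sons differ in strain as well as in tissue. Prefrontal cortex mixes neurons and glia, and a different share of cell types and a different DNAme within 1 type cannot be told apart in these libraries. Window values are adjusted for the cytosines a library lacks and can therefore fall slightly below 0 or above 100.

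**Figure D1:**
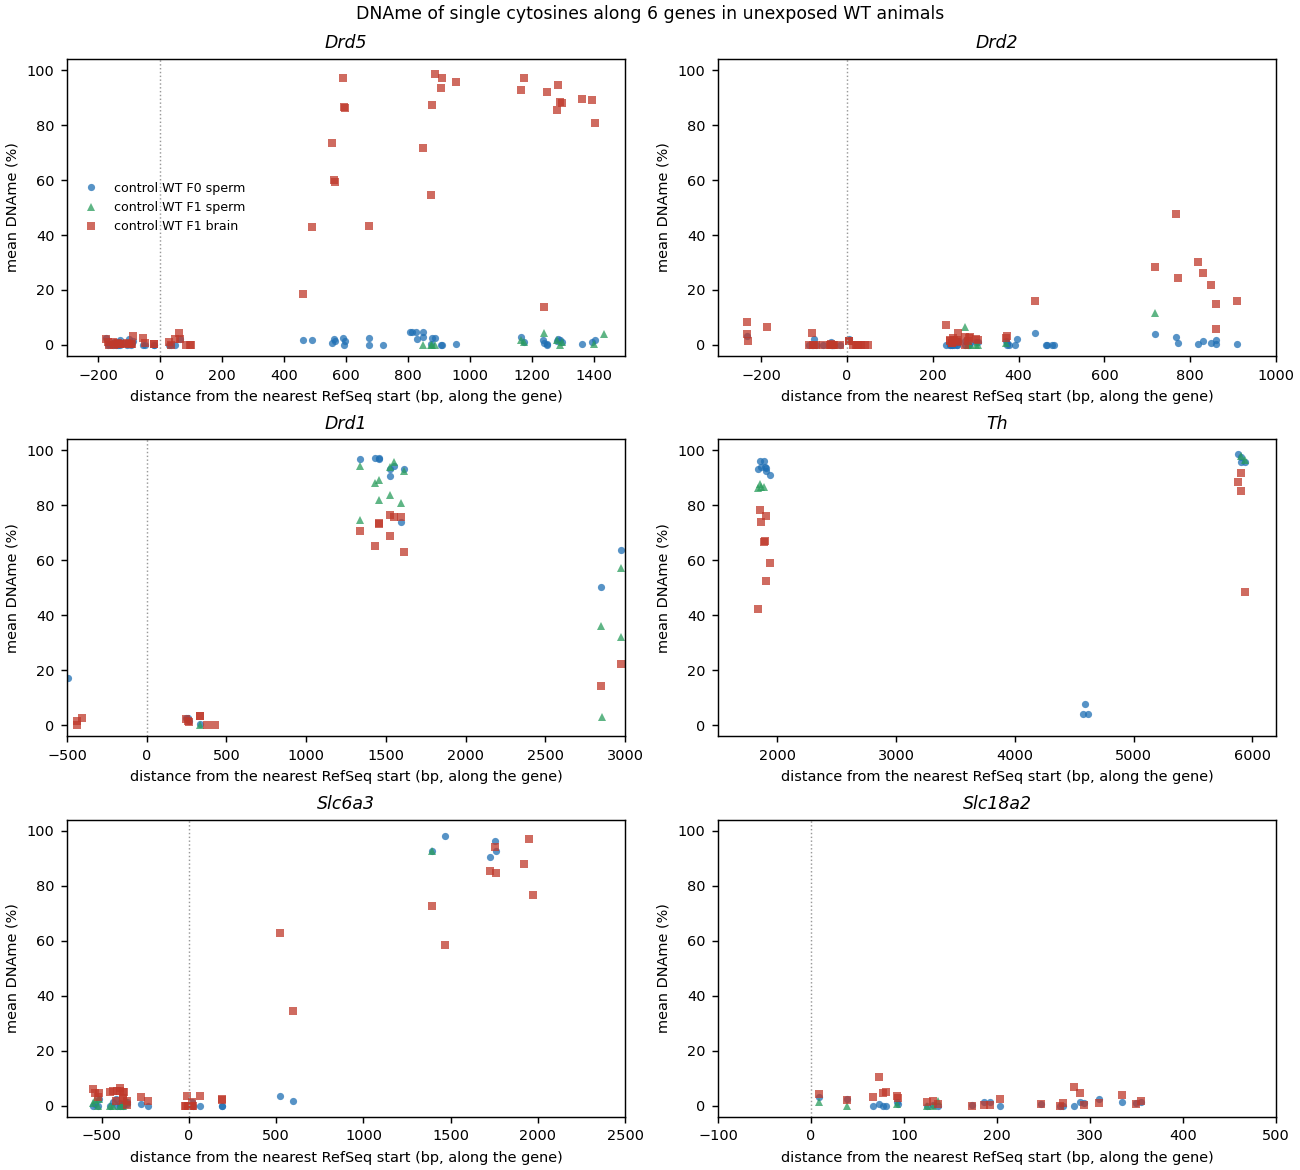
DNAme of single cytosines (vertical axis, mean percent over control WT libraries) against distance from the nearest RefSeq start in bp (horizontal axis) for 6 of the genes, in F0 sperm (circles), F1 sperm (triangles) and F1 brain (squares). Around the starts of Drd5, Drd2 and Slc18a2 no cytosine exceeds 10.6% in F0 sperm or brain (the Th panel shows no start), and the groups separate within the Drd5 coding exon (brain 13.9 to 98.5%, F0 sperm at most 4.61%) and, the other way, within coding sequence of Drd1 and Th.

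Among the D1-like receptors Drd5 had the largest tissue difference of the 9 genes. Its window was at 1.42, 0.441, 0.612 and 1.27% in the 4 F1 sperm libraries with a value, and at 69.8, 75.9 and 86.4% (lowest, median and highest) in the 8 brain libraries. The groups lay far apart, with a difference of +76.5 points (95% interval 72.1 to 81.0, adjusted p = 1.82e-18), which ranked 456 from the highest of 21251 windows. That comparison held only 10 Drd5 cytosines, all inside the coding exon. Over the 51 cytosines measured in F0 sperm and brain the window differed by +39.9 points (95% interval 37.6 to 42.2, adjusted p = 4.53e-15), rank 1973 of 27272. The change along the gene was abrupt. Across the start, from -175 to 63 bp, 24 cytosines stayed between 0 and 2.55% in F0 sperm and between 0 and 3.21% in brain. From 462 to 1402 bp, inside the coding exon, 27 cytosines had a median of 1.39% in F0 sperm and 87.3% in brain. By regions against F0 sperm, the start region differed by +0.208 points (adjusted p = 0.571) and the 3 coding regions by +58.7, +83.6 and +81.7. The printed Drd5 stretch is the last of these 3. Its brain value was 78.8, 83.6 and 86.1%, and its F0 sperm value ran from -3.03 to 4.13% around a median of 0.969%. Of 51 Drd5 cytosines measured in F0 sperm and brain, 25 were more than 20 points higher in brain and 0 more than 20 lower.

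Drd1, the most abundant dopamine receptor of the forebrain, went the other way. Its window was at 70.9, 73.9 and 79.2% in F1 sperm and at 51.9, 56.3 and 62.4% in brain, without overlap, a difference of -17.8 points (95% interval -20.9 to -14.8, adjusted p = 1.55e-10). Of the 12 cytosines in this comparison 9 lay in the coding stretch printed above, 1339 to 1612 bp from the start. That region was at 86.0, 89.4 and 91.4% in F1 sperm and at 65.1, 71.3 and 78.5% in brain, and at 90.1 to 95.8% in F0 sperm. Brain minus F1 sperm was -17.8 points there as well (adjusted p = 3.08e-10). Beyond the stretch, chr13:54051803 went from 57.1% in F1 sperm to 22.2% in brain and chr13:54051928 from 36.3 to 14.3%, so the difference was not confined to it. The 4 cytosines from 249 to 335 bp stayed between 0.445 and 2.77% in F0 sperm and between 1.07 and 3.37% in brain, and their region differed by +0.0909 points (adjusted p = 0.943). So the related genes Drd1 and Drd5 both had low DNAme near the start and differed in opposite directions in their coding exon.

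Of the D2-like receptors, Drd2, which also serves as the autoreceptor on dopamine neurons, was higher in brain. Its window stood at 15.8, 18.2, 20.8 and 8.96% in 4 F1 sperm libraries and at 27.3, 28.5 and 30.9% in brain, a difference of +12.9 points (95% interval 9.88 to 15.9, adjusted p = 7.02e-08). Of the 11 Drd2 cytosines in this comparison, chr9:49365749 (+43.3 points), chr9:49365833 (+24.9), chr9:49373269 (+24.5) and chr9:49373313 (+22.002) differed most, and the last 2 were at 97.6 and 95.5% in F0 sperm. Around the start, from -232 to 374 bp, 35 cytosines lay between 0 and 3.33% in F0 sperm and between 0 and 7.28% in brain. The printed stretch in the first intron, 717 to 908 bp from the start, was measured mainly in F0 sperm and brain, with 1 of its 9 cytosines in the comparison with F1 sperm. It had a highest F0 sperm value of 3.50% around a median of 1.04%, and 13.5, 24.4 and 33.7% in brain. Brain exceeded F0 sperm there by 22.5 points (95% interval 18.8 to 26.3, adjusted p = 1.66e-09), and all 8 brain libraries lay above all 10 F0 sperm libraries. Its 9 cytosines were not alike, since their brain means ran from 5.98 to 47.7%.

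Drd3, a receptor concentrated in limbic areas, had a methylated body in both tissues. Its window stood at 79.6, 84.0, 80.2, 82.8 and 72.2% in 5 F1 sperm libraries and at 76.6, 81.0 and 84.5% in brain, a difference of +1.03 points (95% interval -2.27 to 4.33, adjusted p = 0.604). Against F0 sperm the brain was lower by -10.4 points (adjusted p = 1.6e-08), and the coding region chr16:43821366-43821524 ran from 95.4 to 98.1% in F0 sperm and from 89.9 to 92.5% in brain (-5.49 points, adjusted p = 7.45e-10). Against F1 sperm this region differed by +4.55 points, the other way, over the same 7 cytosines, and did not pass. The window comparisons differ both in the sperm and in the Drd3 cytosines measured (14 and 30). Of its 30 cytosines measured in F0 sperm and brain, 18 exceeded 80% in both and 6 were more than 20 points lower in brain.

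Drd4, a receptor of cortical neurons whose gene is a compact CpG-rich locus, had little DNAme at most of its cytosines. Its window had values of at most 1.23% in 4 F1 sperm libraries and 2.84, 4.97 and 11.6% in brain, a difference of +5.23 points (95% interval 2.74 to 7.71, adjusted p = 6.54e-04). In the coding region chr7:141294302-141294407 brain was 1.88 points above F1 sperm (adjusted p = 0.0328, higher in 6 of 8 libraries), and the call was lost without brain column 1, 7 or 8 or F1 sperm column 1, 4 or 5 (adjusted p up to 0.0647). Of 55 Drd4 cytosines, 51 were below 10% in F0 sperm and in brain. The 3 that were more than 20 points higher in brain than in F0 sperm were chr7:141293583 (46.7% against 4.57%), chr7:141293621 (39.2% against 4.07%) and chr7:141294824 (27.5% against 0%).

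**Figure D2:**
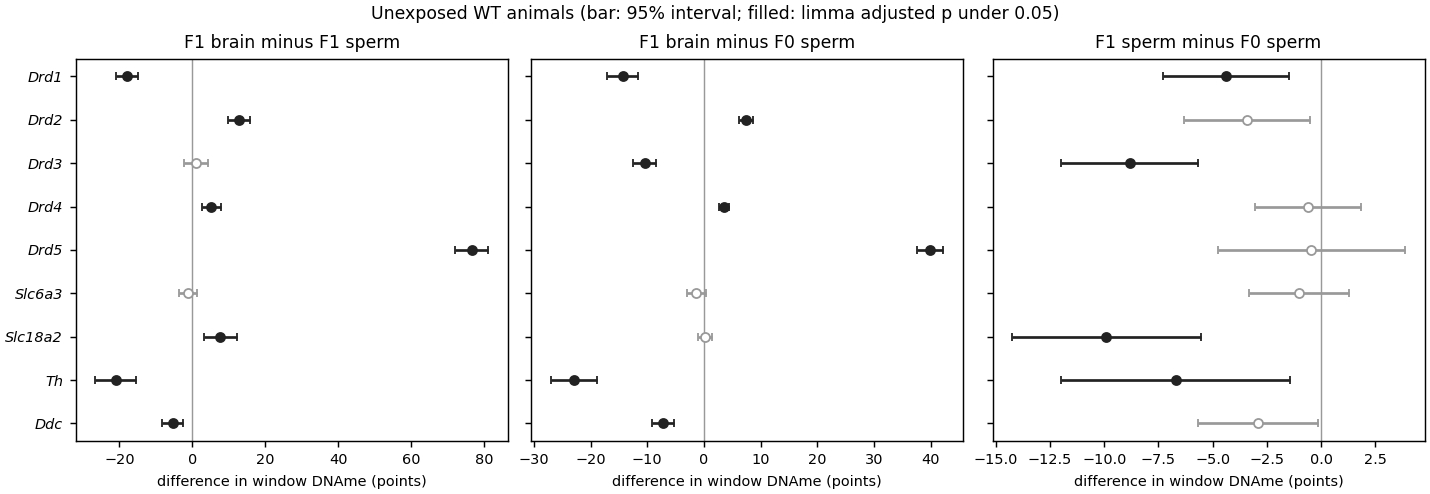
Differences in window DNAme (horizontal axis, percentage points, with 95% interval) for the 9 genes in control WT animals, for brain minus F1 sperm, brain minus F0 sperm and F1 sperm minus F0 sperm; filled points passed the limma test. Drd5 stands at +76.5 points in the comparison of brain with F1 sperm, while the 9 differences between F1 and F0 sperm all lie below 0. The median of all windows between F1 and F0 sperm was -0.967 points.

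Of the transporters, Slc18a2 passed as a window and Slc6a3 did not. Slc6a3 was at 28.7, 28.3, 25.1 and 25.1% in F1 sperm and at 20.9, 25.3 and 30.7% in brain, a difference of -1.17 points (95% interval -3.56 to 1.22, adjusted p = 0.400). The window average hid opposite parts, since chr13:73568960 (-26.7 points) and chr13:73538141 (-20.1) were lower in brain than in F1 sperm. The upstream stretch printed above was at 1.11, 0.476, 1.11 and 1.25% in F1 sperm and at 2.34, 3.93 and 8.62% in brain, +3.72 points (95% interval 1.75 to 5.70, adjusted p = 0.00178) with no overlap. The region chr13:73560805-73560892, which reaches into a coding exon inside the gene, was 18.2 points lower in brain than in F0 sperm (95.6% to 77.4%, adjusted p = 1.46e-04). Of its cytosines only chr13:73560892 entered the comparison with F1 sperm, where it differed by -0.622 points. For Slc18a2, the window stood at 25.6, 32.6, 21.5 and 21.1% in F1 sperm and at 29.05, 32.8 and 36.9% in brain, +7.64 points (adjusted p = 0.0038). Of its 10 cytosines in this comparison 2 carried the rise, chr19:59287407 (+54.3 points) and chr19:59293707 (+87.2), while the other 8 differed by -15.7 to +2.85. Against F0 sperm it differed by +0.109 points (95% interval -1.14 to 1.36, adjusted p = 0.882). The sequence just after its start, from 8 to 355 bp and including 5′ untranslated sequence, stayed between 0 and 3.14% at each of 25 cytosines in F0 sperm and between 0 and 10.6% in brain, and as a region was 1.66 points higher in brain (adjusted p = 9.46e-04).

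Both enzyme genes had lower DNAme in brain. The Th window was at 77.1, 87.9 and 99.2% in F1 sperm and at 60.4, 68.8 and 74.4% in brain, a difference of -21.05 points (95% interval -26.6 to -15.5, adjusted p = 2.36e-07) with no overlap. In the printed Th stretch, in coding sequence near the 5′ end of the gene, F0 sperm lay at 89.2, 93.9 and 98.0% and brain at 53.5, 65.8 and 71.7%, so brain was 29.4 points lower (95% interval -33.4 to -25.3, adjusted p = 1.13e-10). At the 3′ end of the coding sequence (chr7:142894055-142894114) brain was 17.7 points lower (adjusted p = 5.07e-04). Ddc, which also makes serotonin, differed less as a window, from 62.7, 67.6, 66.2, 66.6 and 61.3% in 5 F1 sperm libraries to 53.99, 60.2 and 62.5% in brain (-5.41 points, 95% interval -8.31 to -2.52, adjusted p = 0.00167), and the groups overlapped. Its printed intronic stretch of 3 CpGs was at 95.7, 97.6 and 100% in F1 sperm and at 47.4, 53.8 and 61.4% in brain. That is -43.4 points (95% interval -46.9 to -39.8, adjusted p = 7.35e-17), the largest loss among the 9 regions and rank 1093 from the lowest of 29392. Against F0 sperm, 5 Ddc cytosines were more than 20 points higher and 9 more than 20 lower in brain, so the small window difference was an average over both. Ahead of the Ddc start the region chr11:11898672-11898760 was at 96.4% in F0 sperm and 86.1% in brain (-10.3 points, adjusted p = 5.84e-05).

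Over all 333 member cytosines measured in control F0 sperm and brain, 168 were below 10% in both, 56 above 80% in both, 47 more than 20 points higher in brain and 34 more than 20 points lower. Of all 1213040 cytosines so measured, 51.3% were below 10% in both, 20.0% above 80% in both, 10.6% more than 20 points higher and 9.99% more than 20 points lower. Drd5 (25) and Drd2 (10) held most of those that were higher, and Ddc (5), Drd4 (3), Slc6a3 (3) and Drd1 (1) the rest. The lower ones were spread over Ddc (9), Drd1 (8), Th (7), Drd3 (6), Slc6a3 (3) and Drd2 (1).

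Sperm of sons was then compared with sperm of control WT F0 males. According to the methods these males were collected soon after exposure ended, and the breeding males were mated later. The comparison is therefore not one of sons with their own fathers. Generation and the CAST/EiJ mother differ together here and cannot be told apart, nor can the numbering series of the table headings, which is a different one for F0 sperm, F1 sperm and brain and so also follows tissue. A CAST/EiJ variant at a CpG can also change a percent. All 9 windows were lower in the sons and 4 passed, against 43.9% of all windows (37.5% of all windows passed as lower). The median of all windows in this contrast was -0.967 points, so most windows of the genome were lower too. Slc18a2 fell from 30.2, 36.2 and 40.9% in F0 sperm to the 4 values above, by 9.90 points (95% interval -14.2 to -5.55, adjusted p = 4.93e-04). The same 2 Slc18a2 cytosines carried this fall (-73.4 and -69.4 points), while the other 8 differed by -3.69 to +1.68. Drd3 fell from 86.1, 88.4 and 91.6%, by 8.83 points (adjusted p = 5.27e-05) and without overlap. Th, with -6.71 points (adjusted p = 0.0355, lower in 5 of 6), and Drd1, with -4.38 points (adjusted p = 0.0132, lower in 5 of 6), also passed. Leaving out single libraries gave 3 to 6 windows, where 43.9% of all windows passed with every library. The shares of all windows in those fits are not given here, so this count is not read as a result about the 9 genes. The Th call was lost without F1 sperm column 1, 2, 3 or 6, or without F0 sperm column 1, 2, 3 or 10 (adjusted p up to 0.145). Over all fits without a single library the Th difference ranged from -8.79 to -4.36 points. Of the 9 regions 2 passed, both in Drd3 (background 34.7%). The coding region chr16:43821366-43821524 was at 95.4, 96.3 and 98.1% in F0 sperm and at 93.1, 90.9, 71.6, 89.4, 95.3 and 78.5% in F1 sperm, -10.0 points (adjusted p = 0.00125). Without the F1 sperm library of column 3, the lowest, it was -7.05 points. The intronic region chr16:43813628-43813741 (-7.89 points, adjusted p = 0.0497) lost its call whichever of the 16 libraries was left out, with adjusted p of 0.0504 to 0.126. Of its 5 cytosines, chr16:43813664 carried this fall (-47.1 points, on 4 libraries a group), while the others differed by +1.47 to +3.39.

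Single cytosines differed more than the window averages. Of 108, 6 were more than 20 points lower in the sons (11.4% of all cytosines were) and 0 more than 20 higher (2.65%). In Slc18a2 the cytosine at chr19:59287407 averaged 88.3% in F0 sperm, 14.9% in sperm of sons and 69.2% in brain of sons. That at chr19:59293707 averaged 82.2, 12.8 and 100%. The others were chr16:43792851 (78.9, 30.7 and 42.5%) and chr16:43813664 (97.5, 50.4 and 69.5%) in Drd3, and chr9:49373269 (97.6, 67.5 and 92.0%) and chr9:49373313 (95.5, 72.3 and 94.3%) in Drd2. Each Slc18a2 mean rests on 5 libraries a group.

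**Figure D3:**
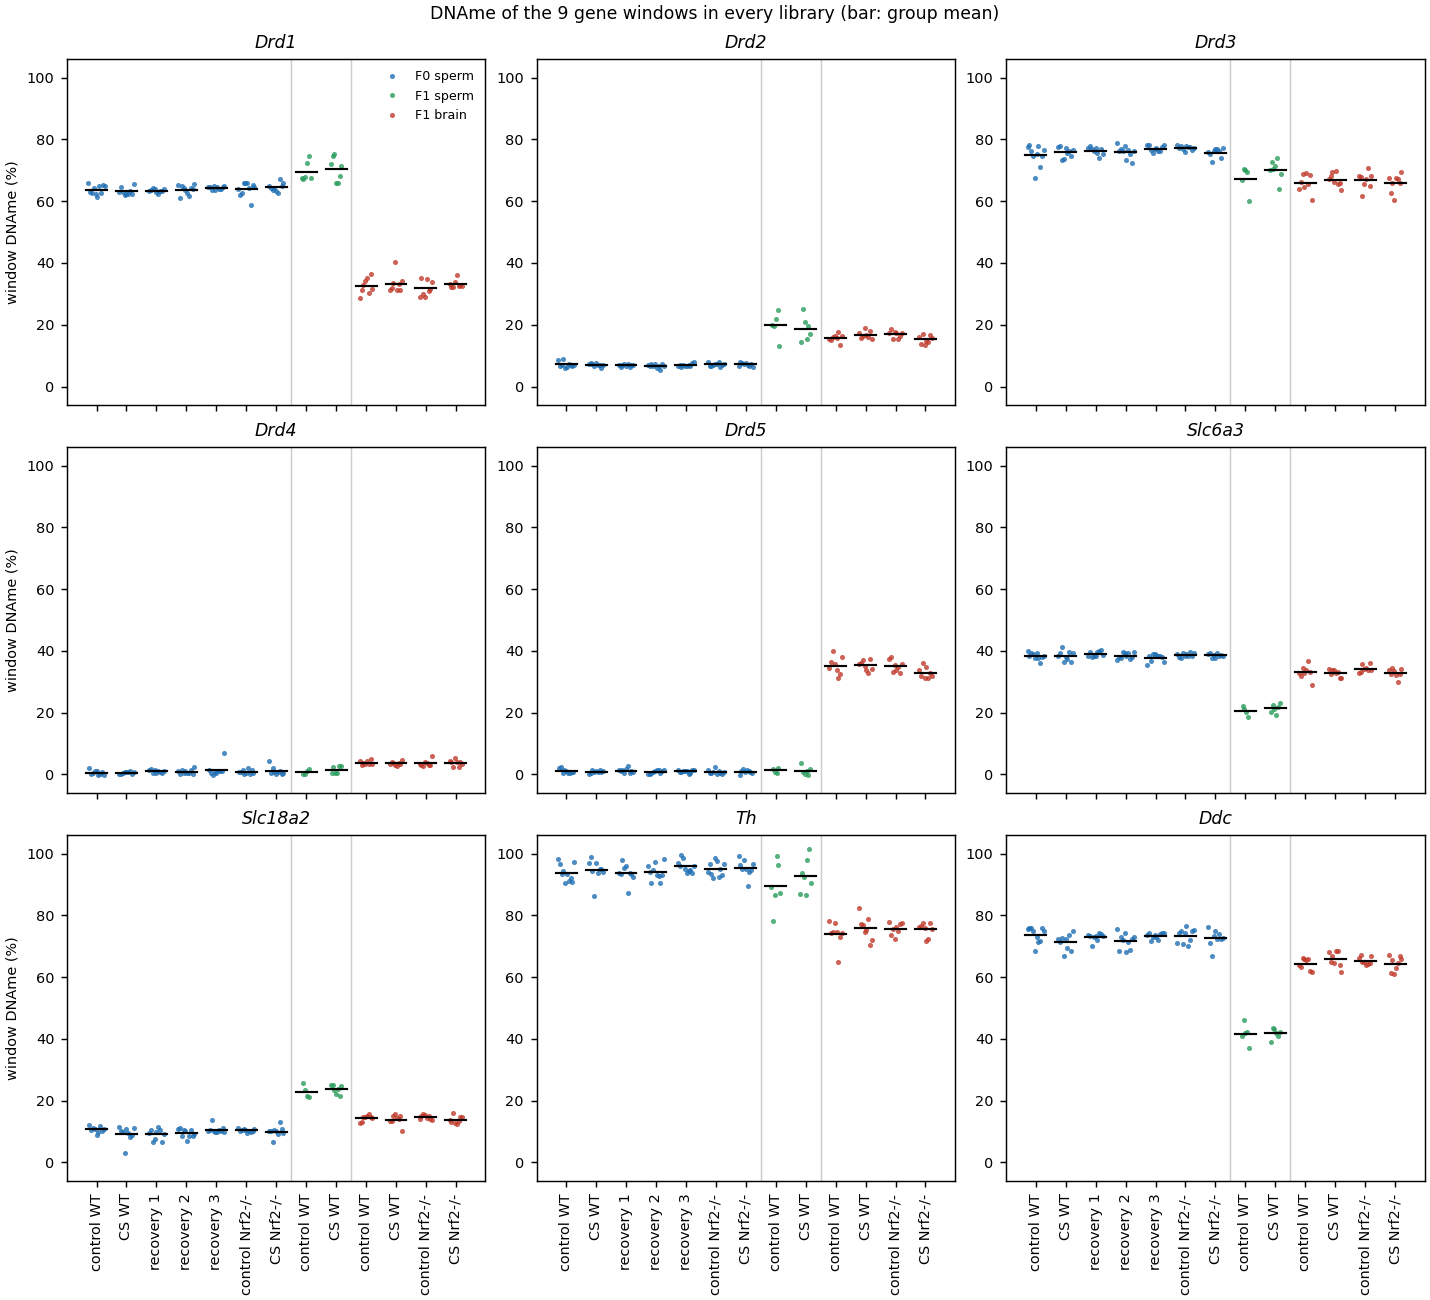
DNAme of the 9 gene windows (vertical axis, percent) in every library, by group along the horizontal axis, with bars at group means; grey lines divide F0 sperm, F1 sperm and F1 brain, whose windows average different sets of cytosines. Within each tissue the groups overlap for every gene, while the level of a gene stays close to its own mean from group to group, as for Th near 94% in F0 sperm.

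Whether CS changed these genes in exposed males was asked in F0 sperm. There the CS, recovery and CS Nrf2-/- groups share the control WT libraries, so their differences are not independent. With CS in WT males 0 of 9 windows and 0 of 20 regions passed (background 0 and 0.00159% of all windows and regions). The unadjusted p was under 0.05 for 2 of 9 windows and 0 of 20 regions, where 4.54% of all windows and 3.91% of all regions had such a p. Ddc was at 68.5, 74.8 and 75.8% in control WT and at 66.8, 72.4 and 74.8% in CS WT sperm, -2.38 points (95% interval -4.38 to -0.367, adjusted p = 0.970). Slc18a2 was at 8.78, 10.8 and 12.2% and at 3.06, 9.74 and 11.3%, -1.49 points (95% interval -2.93 to -0.0529, adjusted p = 0.970). The value of 3.06% is that of CS WT column 4, with the nearest at 8.16%. That library had the lowest mean DNAme of the F0 sperm libraries (31.4%). The groups overlapped in both genes. For Slc6a3 the difference was +0.00360 points (95% interval -0.953 to 0.961). For the 5 receptors and Th the intervals lay between -1.79 and 3.24 points, so over all 9 windows they spanned -4.38 to 3.24.

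After smoke ended, 0 of 9 windows and 0 of 20 regions passed at each recovery time (background 0, 0 and 0.0113% of windows, and 0, 0.00637 and 0.043% of regions). According to the methods, the control WT males were collected together with the CS WT group, soon after exposure ended. The recovery groups were collected later, so smoke history and age at collection cannot be told apart in these comparisons. Slc18a2 was 1.54 points below control WT in recovery 1 (9.14%, adjusted p = 1), Ddc 2.06 below in recovery 2 (71.7%, adjusted p = 1) and Drd3 2.09 above in recovery 3 (77.0%, adjusted p = 0.732, and 1.28 above without the control WT library of column 5). These are the windows with the smallest p of each time. An unadjusted p under 0.05 was reached by 1 window at each time (4.75, 3.96 and 5.99% of all windows) and by 2, 0 and 0 regions (5.28, 4.15 and 6.31% of all regions). The smallest region p of the 160 region tests in F0 sperm was that of the Drd5 coding stretch printed above, at 0.00518, 1.05 and 4.14% in control WT and at 0.670, 2.48 and 5.60% in recovery 1, +1.63 points (p = 0.00952, adjusted p = 0.905).

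Loss of NRF2 was compared without smoke. Again 0 of 9 windows and 0 of 20 regions passed, where 0.365% of all windows and 0.409% of all regions did. Unadjusted, 1 window and 2 regions had p under 0.05 (8.31 and 7.83% of all). Drd3 came nearest in F0 sperm. Its window was at 67.6, 75.8 and 78.1% in control WT and at 76.0, 77.4 and 78.0% in control Nrf2-/- sperm, +2.32 points (95% interval 0.735 to 3.91, p = 0.00483, adjusted p = 0.312). All 10 Nrf2-/- libraries lay above the WT mean but inside the WT range, and leaving out 1 library moved the difference between 1.51, without the control WT library of column 5, and 2.67 points. Within it the intronic region chr16:43787637-43787699 was at 79.2, 96.3 and 100% and at 96.1, 99.7 and 100% (+4.25 points, adjusted p = 0.429, and +2.53 with adjusted p = 0.703 without the same library). Library numbers in the table headings ran from 1 to 20 for Nrf2-/- and from 21 to 70 for WT F0 sperm, so genotype and the run of numbers cannot be told apart. CS Nrf2-/- against control WT gave 0 of 9 windows and 0 of 20 regions (background 0.346 and 0.357%), and so did CS against control within Nrf2-/- (0.00376 and 0.00637%). The smallest adjusted p were 0.905 and 0.735 in the former, with no member window or region under an unadjusted 0.05 (7.31 and 7.9% of all were), and 0.824 and 0.826 in the latter, with 0 windows and 2 regions (6.14 and 5.75% of all). The response to CS did not differ between genotypes past the threshold at any window or region (background 0 and 0%), and 1 window and 1 region had an unadjusted p under 0.05 (3.51 and 4.19% of all). The largest such contrast among windows was Drd3 at -2.41 points (95% interval -4.71 to -0.0980, adjusted p = 1), and without the control WT library of column 5 it was -1.60.

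**Figure D4:**
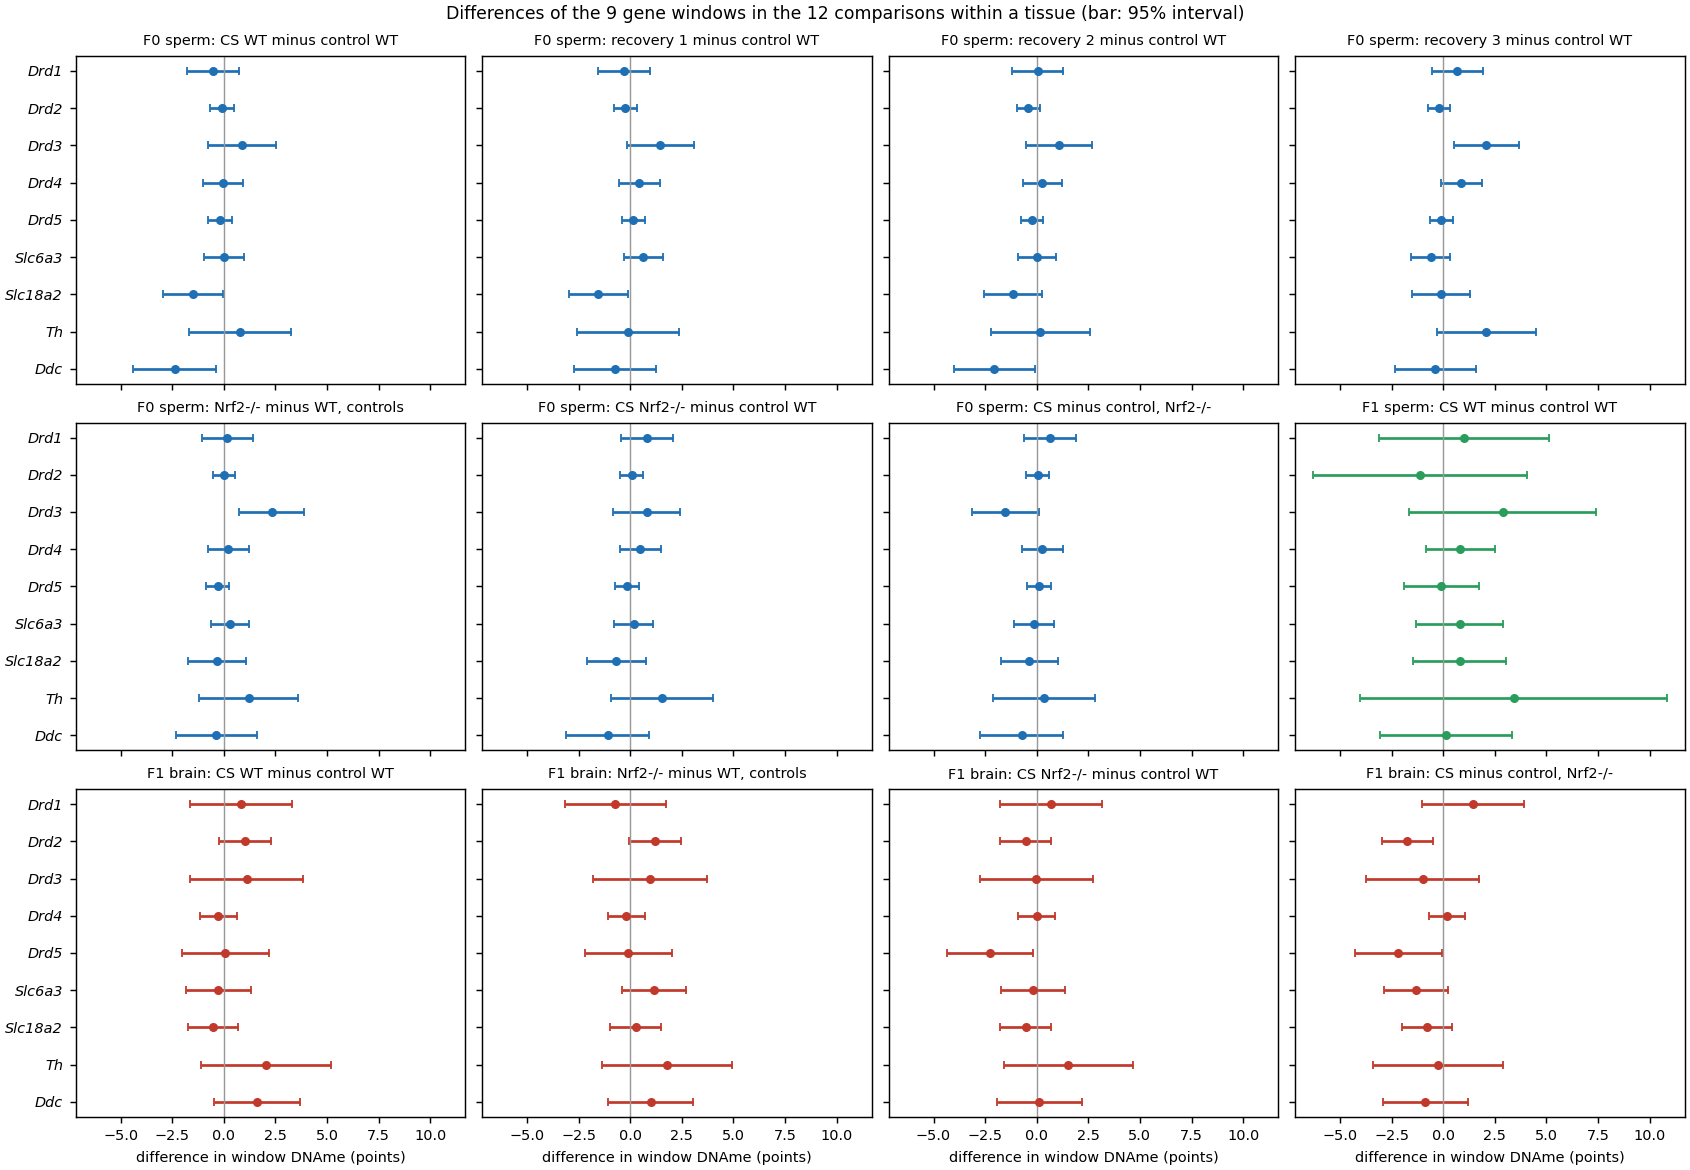
Differences in window DNAme (horizontal axis, percentage points, with 95% interval) for the 9 genes in the 12 comparisons within a tissue, coloured by F0 sperm, F1 sperm and F1 brain. The F0 sperm differences lie between -2.38 and +2.32 points, and the intervals are widest in F1 sperm.

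In F1 sperm, sons of CS WT sires were compared with sons of control WT sires. Of 9 windows 0 passed, of 10 regions 0 passed, and the background was 0% for both. Unadjusted, 0 windows and 1 region had p under 0.05 (6.12 and 5.37% of all). Differences of the windows ran from -1.12 to +3.41 points. The largest was Th, at 78.1, 88.1 and 99.1% in sons of controls and at 86.7, 92.4 and 101% in sons of CS sires. The intronic Drd3 region chr16:43813628-43813741 had the smallest region p. It stood at 88.9, 91.7, 86.7 and 91.4% in 4 sons of controls and at 97.0, 92.9, 98.0 and 96.7% in 4 sons of CS sires, without overlap, +6.49 points (95% interval 2.82 to 10.2, p = 0.00406, adjusted p = 0.903). In sons of controls its cytosine chr16:43813664 averaged 50.4%, and the others averaged 97.9 to 100%.

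In F1 brain, 0 of 9 windows and 0 of 24 regions passed for CS WT against control WT sires (background 0 and 0.00124%), control Nrf2-/- against control WT (0.00712 and 0.0124%), CS Nrf2-/- against control WT (0.00712 and 0.0198%) and CS against control Nrf2-/- sires (0.0427 and 0.00124%). The first 3 share their control libraries. In the same order an unadjusted p under 0.05 was reached by 0, 0, 1 and 2 windows (5.38, 10.4, 11.1 and 15.1% of all windows) and by 2, 5, 1 and 1 regions (4.16, 7.77, 10.4 and 9.63% of all regions). Without the CS WT library of column 8 the first comparison again gave 0 windows and 0 regions (background 0 and 0.00124%), with an unadjusted p under 0.05 for 1 window and 2 regions (9.1 and 5.81% of all). That window was Ddc, at +1.62 points (p = 0.121) with the library and +2.21 (p = 0.0315, adjusted p = 0.509) without it. Column 8 was left out for its low DNAme, so its removal tends to raise the CS WT mean by construction. It likewise tends to make the interaction more negative, so larger differences without it decide nothing. The gene with the smallest p in 4 of these 5 brain contrasts, the interaction included, was Drd2. Its window was at 13.5, 15.9 and 17.5% in sons of control WT, 15.5, 16.5 and 18.997% in sons of CS WT, 15.3, 17.3 and 18.8% in sons of control Nrf2-/- and 13.6, 15.2 and 17.1% in sons of CS Nrf2-/- sires. The groups overlapped. CS against control was +1.03 points with WT sires (95% interval -0.208 to 2.28, adjusted p = 0.936, and +1.23 with adjusted p = 0.558 without column 8) and -1.73 points with Nrf2-/- sires (95% interval -2.98 to -0.491, adjusted p = 0.204, lower in 7 of 8). The median of all windows in the latter contrast was -0.456 points. The 2 lowest Drd2 values with CS Nrf2-/- sires, both 13.6%, were those of columns 2 and 4, and without the 4 brain libraries of lowest mean DNAme the difference was -0.998 points (95% interval -2.33 to 0.338, p = 0.137, adjusted p = 0.805). The difference between these, -2.77 points (95% interval -4.52 to -1.01, p = 0.00313, adjusted p = 0.152), did not pass, where 0.0178% of all windows and 0% of all regions did. Drd2 was the only member window with an unadjusted p under 0.05 for the interaction (16.2% of all windows), beside 3 regions (9.42% of all). Without the CS WT library of column 8 it was -2.96 points with adjusted p = 0.0541. The interaction then gave 0 windows and 0 regions, where 3.23% of all windows and 0.0321% of all regions passed, and 2 windows (Drd2 and Ddc) and 3 regions with an unadjusted p under 0.05 (21.5 and 12.7% of all). Without all 4 low libraries the Drd2 interaction was -2.22 points (95% interval -4.03 to -0.420, p = 0.0177, adjusted p = 0.255). Drd5 was 2.27 points below control WT in sons of CS Nrf2-/- sires (32.96 against 35.2%, adjusted p = 0.426) and 2.18 points below control Nrf2-/- (adjusted p = 0.315), and 2.05 and 1.96 points below (adjusted p = 0.851 and 0.801) without the 4.

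Without the 4 brain libraries of lowest mean DNAme, CS Nrf2-/- against control WT again gave 0 windows and 0 regions past the threshold (background 0.00714 and 0.0136%), with an unadjusted p under 0.05 for 0 windows and 2 regions (5.76 and 5.82% of all). CS against control Nrf2-/- sires gave 0 and 0 (background 0 and 0.00124%), with 0 windows and 0 regions under the unadjusted 0.05 (6.66 and 5.32% of all), so that neither Drd2 nor Drd5 reached it there. The libraries left out were chosen for low DNAme, and most are of CS Nrf2-/- sires. Leaving them out raises that group's mean and shrinks the group by construction, so a smaller drop there decides nothing. The interaction gave 0 and 0 (background 0.00714 and 0%), with 1 window, Drd2, and 1 region, the Th 3′ region, under the unadjusted 0.05 (13.9 and 8.46% of all).

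The Drd2 intronic stretch printed above lay in the same window. It was at 17.5, 26.9 and 34.4% in sons of control Nrf2-/- and at 14.3, 21.2 and 25.9% in sons of CS Nrf2-/- sires, -6.70 points (95% interval -11.7 to -1.66, p = 0.0109, adjusted p = 0.380), and at 13.5 to 33.7% and 20.98 to 34.2% in the WT groups. The lowest 2 values with CS Nrf2-/- sires were those of columns 4 and 2 (14.3 and 14.9%), and without the 4 brain libraries of lowest mean DNAme the difference was -5.30 points (95% interval -11.1 to 0.452, p = 0.0693, adjusted p = 0.931). The region with the smallest p for CS WT and for control Nrf2-/- sires, each against control WT, was chr7:142894055-142894114, at the 3′ end of the Th coding sequence. Sons of control WT sires had 89.7, 81.5, 83.1, 85.5, 80.6, 65.7, 64.3 and 77.9%. Sons of CS WT sires had 81.0 to 88.1% (+6.71 points, adjusted p = 1, and +7.32 with adjusted p = 0.788 without column 8), of control Nrf2-/- 81.1 to 93.1% (+8.25, p = 0.00716, adjusted p = 0.640) and of CS Nrf2-/- 70.8 to 89.6%. The control WT libraries of columns 6 and 7 were the lowest of all 32, and without single libraries the second difference ranged from +6.22 to +9.85 points. The interaction at this region was -10.5 points (95% interval -18.8 to -2.27, adjusted p = 0.419), -11.1 (adjusted p = 0.234) without column 8 and -9.59 (adjusted p = 0.542) without the 4. The Drd5 coding region chr5:38319971-38320184 was at 48.2, 55.98 and 65.1% in sons of CS Nrf2-/- and at 55.05, 64.3 and 70.3% in sons of control Nrf2-/- sires, and its interaction was -10.1 points (adjusted p = 0.520). Column 8 has no value there, and the fit without it gave the same difference with adjusted p = 0.382. Without the 4 it was -9.21 points (95% interval -19.8 to 1.34, adjusted p = 0.661). Brain library numbers in the headings ran from 1 to 16 with Nrf2-/- and from 17 to 32 with WT sires. The sire's genotype, the disrupted allele that his sons inherit and the run of numbers therefore cannot be told apart.

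**Figure D5:**
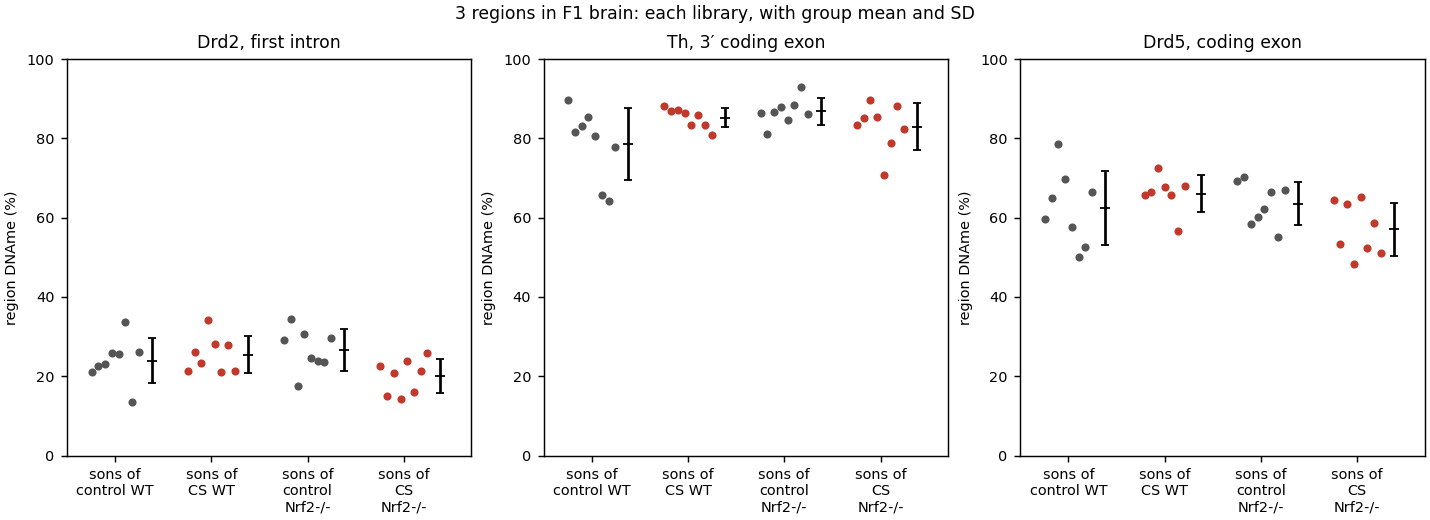
Region DNAme (vertical axis, percent) in each F1 brain library for the Drd2 first intron, the 3′ coding exon of Th and a Drd5 coding region, by sire group, with group mean and SD. In each panel the 4 groups overlap, and in the Th panel 2 sons of control WT sires lie near 65%.

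By size alone, with no test and no account of the spread, a region counts as changed when the share of its cytosines that move by more than 5 points reaches the minimum in the study's methods and its mean moves as far. In F0 sperm 0 of 20 member regions met this for CS WT, recovery 1, 2 and 3 and control Nrf2-/- against control WT (2.61, 3.4, 2.53, 4.1 and 5.1% of all regions did), for CS Nrf2-/- against control WT or control Nrf2-/- (4.93 and 3.73%) and for the interaction (6.3%). In F1 sperm 1 of 10 met the rule (background 13.1%), the Drd3 coding region chr16:43821366-43821524, at +6.10 points. Its control library of column 3 stood at 71.1% and the other 5 at 78.5 to 95.3%. In brain the counts of 24 were 1 for CS WT (Th 3′ region, 8.33% of all regions), 3 for control Nrf2-/- (Th, the printed Ddc stretch and the Slc6a3 exon region, 7.53%), 1 for CS Nrf2-/- against control WT (Drd5, 13.6%) and 3 for CS against control Nrf2-/- (Drd5, Drd2 and the Drd3 intronic region chr16:43800144-43800280, 16%). For the interaction 7 of 24 met it, all lower (22.6%). The shares of all regions count both directions, and the median of all regions in the interaction was -0.668 points. Without column 8 the CS WT count was 1 (11%) and that of the interaction 8, all lower (24.6%). Without the 4 low libraries the counts were 4 for CS Nrf2-/- against control WT (Drd5, Th and 2 of Drd3, 9.02%), 2 for CS against control Nrf2-/- (Drd5 and Drd2, 10.8%) and 5 for the interaction, all lower (20.8%).

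The wider pathway was described by 25 further genes of dopamine synthesis, breakdown, transport, signalling and dopamine neuron identity. In each of the 12 comparisons within a tissue and in both interactions, 0 of the 19 to 22 tested windows passed. The median difference of the list was between -0.515 and +0.307 points, and that of all windows between -0.755 and +0.466. Between brain and F1 sperm 10 of 18 passed (64.1% of all windows did), and the list median of +0.943 points stood beside +0.869 for all windows. Of the 7 higher in brain, Nr4a2, a transcription factor of midbrain dopamine neurons, went from 1.25 to 12.99% and Caly, a protein that binds D1-like receptors, from 1.86 to 11.8%. Slc18a1 (+8.70), Pitx3 (+4.58), Gnal (+4.29), En1 (+2.61) and Foxa2 (+1.47) were the others. The 3 lower in brain included Rgs9, a brake on receptor signalling in the striatum, which went from 65.1 to 32.8%, and Adcy5, the main striatal adenylyl cyclase, which went from 35.8 to 30.4%. Between F1 and F0 sperm 7 of 18 passed (43.9% of all windows did, 37.5% as lower), each lower in the sons, Rgs9 (-11.3 points), Slc18a1 (-8.58), Slc6a2 (-3.57), Gch1 (-3.53), Lmx1a (-3.31), Gnal (-2.002) and Pitx3 (-1.23). The list median was -1.19 points beside -0.967 for all windows.

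For each member the genes with the nearest level over the 13 group means were found by the root mean square difference in points, among 13400 genes with at least 10 scoreable cytosines in each set. Drd5 had a difference of 0 from Gm26560, which overlaps it and holds the same cytosines, and 0.528 from Myrf. Drd4 was nearest to En1 (0.287), itself a gene of the pathway list. Drd2 was nearest to Uck2 (0.470), Slc18a2 to Bend7 (0.679), Drd3 to Vwa8 (0.759), Th to Cfap74 (1.01), Ddc to Tnni3k (1.90) and Drd1 to Tcf4 (1.92). With 13400 candidates near levels are common, and the 13 points are group means that share libraries of 3 sets, so this is a description only.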

How the data were processed

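The 13 deposited tables, 1 for each group, give the percent of reads methylated at each cytosine of each library. According to the methods and the submitters' processing notes, the authors made these percent values by RRBS after digestion with MspI and TaqI, with alignment and methylation calling by Bismark on mm10. Read numbers are not given, so depth is unknown, values of shallow cytosines weigh like those of deep ones, and no counting interval was possible. Sperm had been isolated by swim-out and treated to lyse somatic cells.

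The 9 genes, the pathway list and the tests were chosen with earlier results of these data known. Gene coordinates were from GENCODE M21, and sequences and starts from RefSeq (GRCm38.p6), where all 9 genes matched. The 1728 positions on other sequences were left out, and 0 columns of values stayed unused. Cytosines entered where each group compared in the set had 4 or more libraries with a value. A library's window or region value was its mean over these cytosines, adjusted for missing ones, and needed at least 50% of at least 3 cytosines. Regions joined cytosines up to 100 bp apart and were longer than 50 bp.

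Groups were compared by limma 3.58.1 (R 4.3.3; tables by Python 3.11.15) across all windows or all regions of the genome, fitting all groups of a set together, with Benjamini-Hochberg adjustment and a threshold of 0.05. Scripts were tested on simulated data. All 9 genes are named, with some of the regions that passed and some with the smallest p of a comparison, but not all of these. Further regions, and the 6 printed sequences, were chosen with their values known. Alternatives were a minimum of 6 libraries, a promoter window (2 kb upstream to 500 bp downstream), the gene body alone, the arcsine scale, array weights, only the groups compared, averaged strands, cytosines present in every library, joining to 300 bp, a size threshold of 10 points and leaving out each library. F0 sperm for the tissue comparison, brain without 1 or 4 libraries, and sets of library numbers as a block were added after the data were seen. Values of some further genes outside the 9 members are not reported here.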

Additional observations from a re-analysis of the deposited data

Results flagged for a closer look

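Of 117 sets of a gene window and a group of 4 to 10 libraries, 12 held a library whose gap to its nearest neighbour was large against the range of the group (Dixon's criterion at 95%). Chance flags about 1 in 20 such sets. The gap alone was the ground for each, and its cause was not tested.

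In F0 sperm of CS WT males, the library of column 4 was lowest at the Th window (86.3%, the nearest being 93.5%) and at the Slc18a2 window (3.06%, nearest 8.16%), and that of column 8 at the Drd2 window (5.96%, nearest 6.79%). In recovery 1, column 6 was highest for Drd5 (2.71%, nearest 1.62%). In recovery 3, column 3 was highest for Slc18a2 (13.6%, nearest 11.1%) and column 10 for Drd4 (6.81%, nearest 1.57%). In CS Nrf2-/- sperm, column 1 was highest for Drd4 (4.26%, nearest 1.98%).

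In F1 brain, column 6 of the control WT sires was lowest for Th (64.9%, nearest 72.8%). This library was also among the 2 lowest at the 3′ coding region of Th. Column 4 of the CS WT sires was highest for Drd1 (40.3%, nearest 34.3%), and column 8 of the same group, the library with the lowest mean DNAme, was lowest for Slc18a2 (10.2%, nearest 13.3%). Without that library the CS WT difference of the Slc18a2 window went from -0.520 to -0.00145 points. Column 5 of the CS Nrf2-/- sires was highest for Drd1 (36.04%, nearest 33.9%), and column 8 of the control Nrf2-/- sires for Drd4 (6.00%, nearest 4.18%).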

How the results depend on the processing

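Within each tissue the count of member windows and regions past the threshold was 0 in all 28 fits reported, in 198 fits under other settings and in 566 fits that left out 1 library. The smallest adjusted p over these were 0.181 (windows) and 0.327 (regions) in F0 sperm, 0.0541 and 0.234 in brain, and 0.564 and 0.490 in F1 sperm. Fewer windows or regions could be measured under several settings, which lowers counts by construction. With a minimum of 6 libraries the tissue comparison gave 3 of 4 windows and 1 of 2 regions (70 and 71% of all windows and regions passed) and the generation comparison 1 of 2 regions (58.8%). With cytosines present in every library they gave 3 of 4, 1 of 2 and 1 of 2 (69.4, 71.3 and 59%). Promoter windows gave 2 of 3 for tissue (33.7%) and 0 of 3 for generation (10.1%). Array weights gave 1 of 9 regions for generation (27.7%), leaving out single libraries 1 to 1 regions (33.3 to 36%), and F0 sperm as the sperm side 18 regions for tissue (60.6%). By size, joining to 300 bp gave 1 region each in F0 sperm for CS WT, recovery 3, control Nrf2-/- and CS within Nrf2-/- (4.89, 6.96, 8.28 and 6.6% of all regions), and 3 for CS WT in brain (10.1%). A threshold of 10 points gave 0 in F1 sperm (2.27%), 0 in the 4 brain comparisons (0.87 to 5.25%), 2 for the brain interaction (9.73%) and 0 for generation (20.4%). Without the 4 brain libraries of lowest mean DNAme, left out after the data were seen, CS Nrf2-/- against control WT gave 4 regions (9.02%). Where a count moved and no construction is named, the cause was not tested. In promoter windows 3 differences changed sign: Drd1 in F0 sperm of CS Nrf2-/- against control WT (-1.30 points), Drd5 in brain for the same contrast (+0.0622) and Drd2 in brain for CS WT (-0.00263), none past the threshold in either version.

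No paired analysis was possible because the table columns carry no replicate numbers of the labels. Their headings carry library numbers, which run in sets of 5 through the WT F0 sperm groups and of 4 through brain within a sire genotype. What a set shares is not given. As a block, added after the data were seen, the sets left 0 member windows and regions past the threshold in the 14 fits that could be made, with adjusted p of at least 0.0959 (Drd2 interaction in brain). Deviations from the group means over gene windows were correlated between pairs of libraries from different groups. Pairs within a set had a mean correlation of 0.0154 in WT F0 sperm and 0.0629 in brain, beside -2.80e-04 and -0.00533 between sets. Single pairs within a set ran from -0.323 to 0.598 in WT F0 sperm and from -0.0596 to 0.392 in brain. Read depth is unknown, so shallow cytosines cannot be weighted down, and the F1 sperm comparisons rest on the fewest cytosines and libraries.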
